A study of Bos taurus with 4 samples.

Results

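The 10 genes described here encode elastic, adhesive and matricellular proteins of the extracellular matrix. They are the tenascins TNC and TNXB, periostin (POSTN), the thrombospondins THBS1 and THBS2, SPARC, elastin (ELN), fibrillin 1 (FBN1), fibronectin (FN1) and lubricin (PRG4). Members were the array probes named for these genes, 46 of 43653 probes and 10 of 25297 gene names, with 13 for FN1, 6 each for THBS1, SPARC and ELN, 4 each for TNC and THBS2, 3 for POSTN, 2 for PRG4 and 1 each for TNXB and FBN1. Of the 46 probes, 44 passed the detection filter, and the probes that did not pass belong to ELN and PRG4, each of which kept at least 1 tested probe.

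RNA came from bovine intramuscular preadipocytes, known as a clonal line of fat cell precursors from the fat depot within muscle, so every group stems from 1 line. ATRA cultures received 1 µM all-trans retinoic acid, and 9cRA cultures 1 µM of its cis isomer. Day 6 control cultures received no retinoid, and these 3 groups were harvested at day 6, whereas the day 0 group was harvested when adipogenic stimulation began. The adipogenic medium of the day 6 groups held fetal bovine serum (10%), insulin (50 ng/mL) and dexamethasone (0.25 µM), with octanoate at 5 mM and acetic acid at 10 mM. By its title the study asks how vitamin A alters expression during adipogenesis. Each group was hybridised to 3 one-colour arrays (n = 3, 12 arrays on 3 slides). Nothing in the labels ties the arrays to separate cultures, so a p-value here reflects the spread among arrays, which may be technical.

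Matricellular proteins sit in the matrix without forming its load-bearing fibres, and they tune how cells adhere, spread and receive growth factors. Elastic fibres form when elastin is laid on fibrillin microfibrils and crosslinked by lysyl oxidases, while fibronectin forms an adhesive mesh that cells grip through integrins. Preadipocytes are known to replace much of their fibronectin-rich stromal matrix as they become fat cells, and retinoic acid, acting through nuclear receptors, is known to restrain that conversion.

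For each gene the tested probe nearest the 5′ end of the transcript is printed here, because the differences in FN1 and ELN varied along the transcript. TNXB and PRG4 had only 1 tested probe, so for them position played no part in the choice. All 60 bases of a probe bind the labelled RNA, so no base is in capitals. Positions are on the UMD3.1 assembly as the files give them, and probes of POSTN, THBS1 and PRG4 lie on the forward strand and the others on the reverse strand. For SPARC, ELN, FN1 and PRG4 the genomic span exceeds the length of the probe, so these probes cross a splice junction. The single FBN1 probe is not shown, and whether the printed probes lie inside coding sequence was not tested.
TNC, chr8:106037061-106037120: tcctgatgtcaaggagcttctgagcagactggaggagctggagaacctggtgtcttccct
TNXB, chr23:27085622-27085681: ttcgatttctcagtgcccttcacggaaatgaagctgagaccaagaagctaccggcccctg
POSTN, chr12:24258791-24258850: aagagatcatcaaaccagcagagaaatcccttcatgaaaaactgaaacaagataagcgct
THBS1, chr10:35316585-35316644: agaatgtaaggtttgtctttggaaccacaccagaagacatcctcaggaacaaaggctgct
THBS2, chr9:104756978-104757037: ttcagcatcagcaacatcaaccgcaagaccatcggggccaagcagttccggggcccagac
SPARC, chr7:64883138-64884914: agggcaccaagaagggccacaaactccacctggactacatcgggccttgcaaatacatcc
ELN, chr25:33804097-33804568: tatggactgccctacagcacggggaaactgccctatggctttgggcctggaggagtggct
FN1, chr2:103942038-103945102: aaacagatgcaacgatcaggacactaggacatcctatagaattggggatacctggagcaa
PRG4, chr16:68885296-68886081: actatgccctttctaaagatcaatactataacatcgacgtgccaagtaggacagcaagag

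Signals are log2 values relative to the 75th percentile of the array's own probes, so 0 is a rather bright spot and a difference of 1 is a doubling, and signals of different probes are not set against each other. A gene is represented by its brightest tested probe, and adjusted p values come from limma over all 31205 tested probes, called under 0.05. Over all 12 arrays, 64.8 to 74.0% of spots were well above background. The lowest share was on day 6 control array 1, which also had 105 spots of non-uniform signal, against 2 or fewer on each other array. Day 6 control array 1 shared slide 1 with the day 0 arrays, the other day 6 control arrays shared slide 2 with ATRA arrays 1 and 2, and the 9cRA arrays shared slide 3 with ATRA array 3. Values within slide 1 (day 6 control against day 0) and within slide 2 (ATRA against day 6 control) are therefore given beside each difference, while no slide held both 9cRA and day 6 control arrays.

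With either retinoid at day 6, TNC, ELN, PRG4, THBS1, FN1 and FBN1 fell and TNXB, THBS2 and POSTN rose relative to the day 6 control. SPARC did not pass by its brightest probe. Thus 3 of 10 genes rose and 6 fell with ATRA, where 23.3% of all tested genes were called higher and 21.9% lower. The counts with 9cRA were also 3 and 6, against 24.2% of all genes called higher and 21.3% lower. The median difference over the 10 genes was -0.35 with each retinoid, beside 0.05 (ATRA) and 0.06 (9cRA) over all genes. Both retinoid comparisons share the day 6 control arrays. The comparison of the day 6 control with day 0 uses them too, with the opposite sign.

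**Figure D1:**
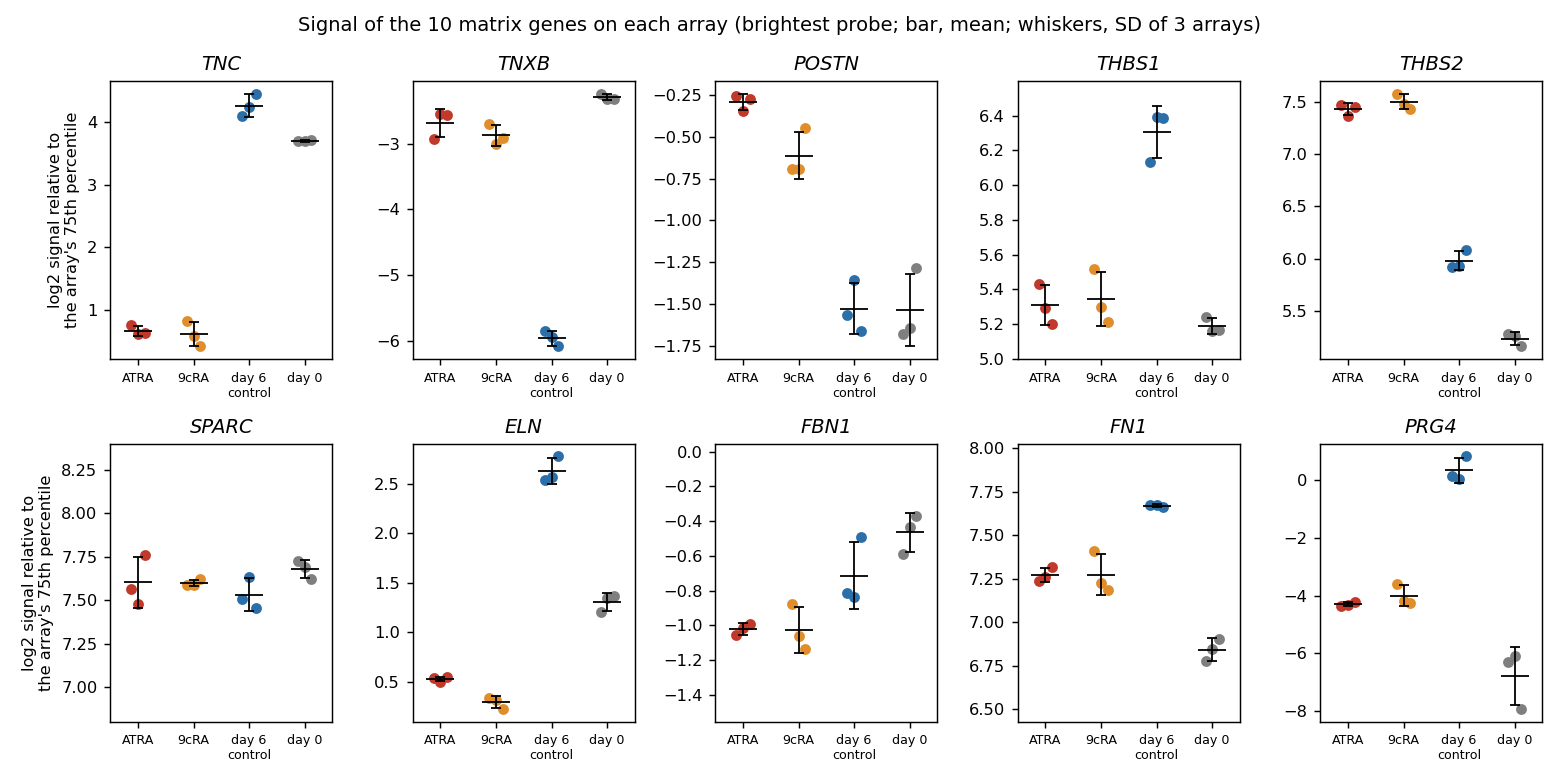
Signal of the 10 genes on every array, in log2 units above or below the 75th percentile of that array (vertical axis, with its own range in each panel), for ATRA, 9cRA, day 6 control and day 0. Points are arrays, bars the mean and whiskers the SD of 3 arrays. TNC, ELN, PRG4, THBS1, FN1 and FBN1 are lower and TNXB, THBS2 and POSTN higher on every retinoid array than on any day 6 control array, and SPARC overlaps. Over all tested genes, 54% showed no overlap between ATRA and day 6 control arrays, and 54.4% between 9cRA and day 6 control arrays.

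Over culture without a retinoid, PRG4, ELN, THBS1, FN1, THBS2 and TNC rose and TNXB fell relative to day 0. POSTN, SPARC and FBN1 did not pass by their brightest probes. Of the 10 genes, 6 were called higher and 1 lower in the day 6 control than at day 0, where 30.9% of all genes were called higher and 31.2% lower. The median difference of the 10 genes was 0.65, beside 0.0045 over all genes. For 67.7% of all genes the day 6 control arrays did not overlap the day 0 arrays. By probes, 32 of the 44 were called higher and 4 lower, against 28.6% and 33.1% of all probes. With ATRA, 8 of these probes were called higher and 31 lower than in the day 6 control, against 21.9% and 21.6% of all probes. With 9cRA the counts were 8 and 29, against 22.7% and 20.8%. Probes of 1 gene share their transcript and are not independent.

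**Figure D2:**
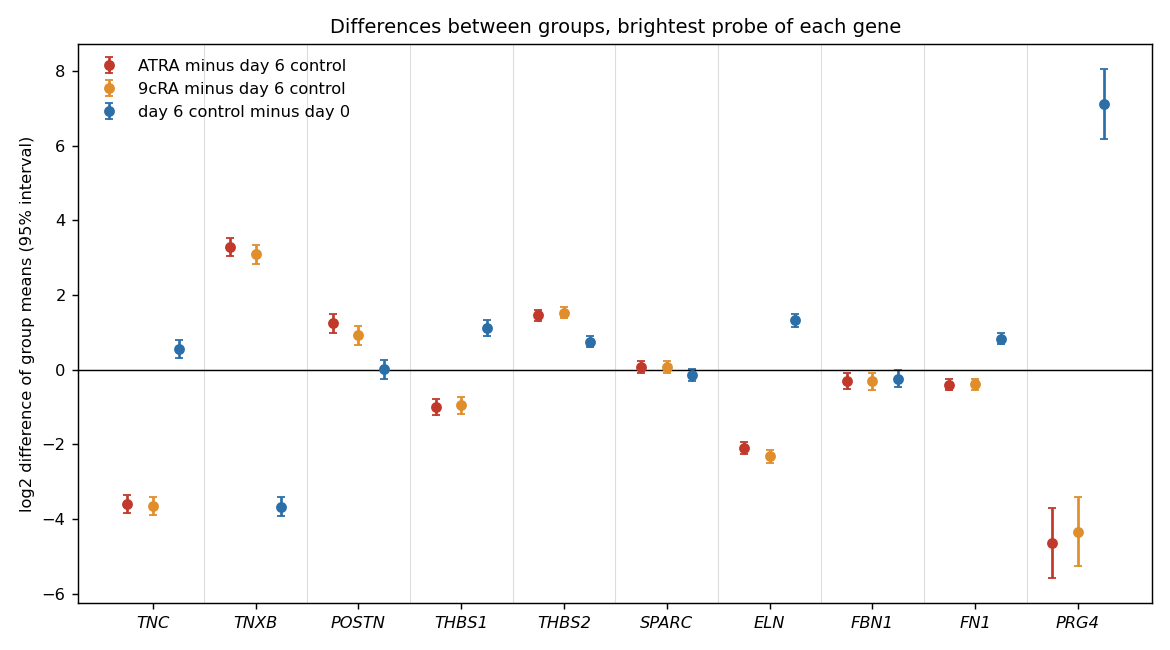
Log2 difference of group means for the brightest probe of each gene, with its 95% interval, for ATRA minus day 6 control, 9cRA minus day 6 control and day 6 control minus day 0. The red and orange points lie close together for each gene. For TNC, TNXB, THBS1, ELN, FN1 and PRG4 they lie across 0 from the blue point, as they do for SPARC, whose intervals all include 0. The day 6 control mean counts with a plus sign in the blue difference and a minus sign in the others. Opposite signs can therefore arise from that group alone.

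TNC encodes tenascin-C, a large many-armed glycoprotein that weakens cell adhesion to fibronectin and is known from developing, wounded and remodelled tissue. Its signal was 0.76, 0.61 and 0.63 on the ATRA arrays and 0.82, 0.59 and 0.43 on the 9cRA arrays. It was 4.10, 4.24 and 4.45 on the day 6 control arrays and 3.70, 3.69 and 3.72 on the day 0 arrays. The retinoid arrays lay far below both other groups, which did not overlap either. TNC was 12.1-fold lower with ATRA (log2 difference -3.60, SE 0.11, adjusted p = 3.2e-09) and 12.6-fold lower with 9cRA (-3.65, adjusted p = 3.2e-09) than in the day 6 control. It was also below its day 0 level, with differences of -3.04 (ATRA, adjusted p = 2.4e-09) and -3.09 (9cRA, adjusted p = 2.2e-09). The rise over culture was smaller, 0.56 (SE 0.11, adjusted p = 0.0011). Within slide 2 the ATRA difference was -3.66, and within slide 1 the rise over culture was 0.39 (adjusted p = 0.05 with slide as a block).

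All 4 TNC probes, which start between bases 693 and 6094 of the transcript, were called in the same direction in each of these comparisons. Their differences ran from -3.77 to -3.50 with ATRA, from -3.83 to -3.36 with 9cRA and from 0.53 to 0.77 over culture. The probe at base 693 was well above background on 0 of 3 arrays in each retinoid group, so its fall is only a bound, at least 2.9-fold with ATRA and at least 2.6-fold with 9cRA relative to the day 6 control. Markers of smooth muscle and pericytes moved along with TNC under the retinoids. The summed linear signal of this list (6 of 7 genes on the array, in units of the array's 75th percentile) was 13.8 to 14.4 with ATRA, 13.1 to 15.8 with 9cRA, 130 to 158 in the day 6 control and 277 to 282 at day 0. Its defining genes RGS5, MYH11 and MYOCD were well above background on no more than 1 of 3 arrays in any group, and ACTA2, TAGLN and CNN1 were well above on all arrays. The mean log2 signal of ACTA2, smooth muscle actin, was 2.87 with ATRA, 2.94 with 9cRA, 6.73 in the day 6 control and 7.81 at day 0. In bulk RNA, fewer cells of a type and less RNA per cell cannot be told apart, and the part of these markers in the TNC result was not tested.

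TNXB encodes tenascin-X, which binds fibrillar collagens in mature connective tissue and whose loss in humans gives lax skin and joints. Its pattern was the mirror image of TNC in the retinoid comparison. The single probe read -2.93, -2.55 and -2.56 on the ATRA arrays, -2.70, -3.0 and -2.91 on the 9cRA arrays, -5.86, -5.94 and -6.09 on the day 6 control arrays and -2.24, -2.31 and -2.31 on the day 0 arrays. The day 6 control arrays stood alone at the bottom. TNXB was 9.72-fold higher with ATRA (3.28, SE 0.11, adjusted p = 8.2e-09) and 8.52-fold higher with 9cRA (3.09, adjusted p = 1.3e-08) than in the day 6 control. The signal was 12.8-fold lower in the day 6 control than at day 0 (-3.68, adjusted p = 1.5e-09). The probe was well above background on 1 of 3 day 6 control arrays, so the size of these differences rests on signal near background there. Within slide 2 the ATRA difference was 3.27, and within slide 1 the fall over culture was -3.57.

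TNXB was slightly below its day 0 level, with differences of -0.39 for ATRA (adjusted p = 0.0096) and -0.58 for 9cRA (adjusted p = 0.00091). These small differences did not pass with slide as a block, at -0.30 (adjusted p = 0.27) for ATRA and -0.61 (adjusted p = 0.1) for 9cRA.

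POSTN encodes periostin, a secreted protein that binds collagen, fibronectin and integrins and is made by stromal cells under strain or repair. It was higher with retinoids and flat over culture. The signal was -0.25, -0.34 and -0.27 on the ATRA arrays and -0.69, -0.69 and -0.45 on the 9cRA arrays, against -1.56, -1.36 and -1.66 on the day 6 control arrays. On the day 0 arrays it was -1.68, -1.64 and -1.28, which overlaps the day 6 control. POSTN was 2.36-fold higher with ATRA (1.24, SE 0.12, adjusted p = 1.2e-05) and 1.89-fold higher with 9cRA (0.92, adjusted p = 0.00012) than in the day 6 control. Day 6 control minus day 0 was 0.0079 (95% interval -0.25 to 0.27, adjusted p = 0.96). The ATRA difference within slide 2 was 1.21.

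Each of the 3 POSTN probes was called higher with both retinoids, by 1.24 to 1.48 with ATRA and by 0.92 to 1.07 with 9cRA. With slide as a block only the brightest probe kept its 9cRA call against the day 6 control (0.87, adjusted p = 0.036). The others gave 0.83 (adjusted p = 0.098) and 0.90 (adjusted p = 0.13). None of the 3 was called over culture, where the smallest adjusted p was 0.46. Against day 0, POSTN was higher by 1.25 with ATRA (adjusted p = 4.5e-06) and by 0.92 with 9cRA (adjusted p = 4.6e-05). With slide as a block the 9cRA difference from day 0 no longer passed (0.84, adjusted p = 0.06).

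THBS1 and THBS2 encode trimeric thrombospondins that restrain blood vessel growth, and both rose over culture but moved in opposite directions with retinoids. THBS1 is also known to activate latent TGF-beta. The THBS1 signal was 5.43, 5.29 and 5.20 on the ATRA arrays, 5.52, 5.30 and 5.21 on the 9cRA arrays, 6.13, 6.39 and 6.39 on the day 6 control arrays and 5.24, 5.16 and 5.16 on the day 0 arrays. The day 6 control stood above the other 3 groups, which overlap. THBS1 was 1.99-fold lower with ATRA (-1.0, SE 0.098, adjusted p = 1.6e-05) and 1.95-fold lower with 9cRA (-0.96, adjusted p = 2.3e-05) than in the day 6 control. Over culture it was 2.17-fold higher (1.12, adjusted p = 3.6e-06). Relative to day 0, the retinoid groups differed by 0.12 (ATRA, 95% interval -0.10 to 0.34) and 0.16 (9cRA, -0.06 to 0.37), and neither difference passed, though both did with quantile normalization (0.32, adjusted p = 0.037 for ATRA, and 0.35, adjusted p = 0.027 for 9cRA). Within slides, the ATRA difference was -1.03 and the rise over culture 0.94. The 6 THBS1 probes were all called in the direction of the brightest one, with differences of -1.36 to -0.88 (ATRA), -1.34 to -0.80 (9cRA) and 0.96 to 1.37 (culture). With slide as a block the 9cRA calls of the probes at bases 784 (adjusted p = 0.086) and 1194 (adjusted p = 0.054) did not hold.

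THBS2, known in mice also for shaping collagen fibrils, had a stepwise pattern. Its signal was 7.47, 7.36 and 7.45 on the ATRA arrays and 7.58, 7.48 and 7.44 on the 9cRA arrays. It was 5.92, 5.93 and 6.09 on the day 6 control arrays and 5.28, 5.26 and 5.16 on the day 0 arrays. The retinoid arrays were highest, the day 6 control lay between, and day 0 was lowest with no overlap. THBS2 was 2.73-fold higher with ATRA (1.45, SE 0.066, adjusted p = 5e-08) and 2.87-fold higher with 9cRA (1.52, adjusted p = 3.9e-08) than in the day 6 control, and 1.67-fold higher in the day 6 control than at day 0 (0.74, adjusted p = 3.6e-06). Relative to day 0, it was 4.58-fold higher with ATRA (2.19, adjusted p = 7.2e-10) and 4.8-fold higher with 9cRA (2.26, adjusted p = 5.9e-10). The ATRA difference within slide 2 was 1.41, and the rise within slide 1 was 0.68. All 4 THBS2 probes were called higher in each of these comparisons. The largest retinoid differences, 2.12 (ATRA) and 2.41 (9cRA), came from the probe at base 550, and the smallest from the brightest probe at base 4444.

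SPARC encodes osteonectin, a calcium- and collagen-binding glycoprotein known in mice to hold back adipogenesis, and by its brightest probe it had the smallest span between the 4 group means of the 10 genes (0.15). The signal was 7.57, 7.48 and 7.76 on the ATRA arrays, 7.59, 7.59 and 7.62 on the 9cRA arrays, 7.51, 7.63 and 7.45 on the day 6 control arrays and 7.73, 7.69 and 7.62 on the day 0 arrays. ATRA arrays overlapped with each other group. ATRA minus day 6 control was 0.07 (95% interval -0.10 to 0.24, adjusted p = 0.48), 9cRA minus day 6 control was 0.07 (-0.10 to 0.23, adjusted p = 0.51), and day 6 control minus day 0 was -0.15 (-0.32 to 0.02, adjusted p = 0.12). Within slide 2 the first of these was -0.02 and within slide 1 the last was -0.17. With arrays scaled on their median, the difference over culture passed (-0.22, adjusted p = 0.022).

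Other SPARC probes did pass. Of 6 probes, 3 were called lower with ATRA, 2 lower with 9cRA and 3 lower over culture, and none was called higher. With slide as a block neither 9cRA call held (adjusted p = 0.24 at base 1115 and 0.08 at base 1893). The probe at base 1883 also lost its calls with ATRA (adjusted p = 0.13) and over culture (adjusted p = 0.17). The probe at base 1115 gave the largest falls, -0.38 (ATRA, adjusted p = 0.00058), -0.35 (9cRA, adjusted p = 0.0012) and -0.31 (culture, adjusted p = 0.0013). Relative to day 0, 4 of the 6 were called lower with each retinoid, by up to -0.70 (ATRA) and -0.66 (9cRA). The 2 probes nearest the 3′ end gave -0.04 to 0.07 with ATRA and the 4 others -0.38 to -0.18, and the reason for the gap was not tested.

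ELN encodes tropoelastin, the soluble unit of elastin. Its brightest probe read 0.54, 0.50 and 0.55 on the ATRA arrays, 0.34, 0.32 and 0.23 on the 9cRA arrays, 2.53, 2.57 and 2.77 on the day 6 control arrays and 1.20, 1.35 and 1.37 on the day 0 arrays. The 4 groups were separate, with the day 6 control on top and the retinoid groups below day 0. ELN was 4.27-fold lower with ATRA (-2.09, SE 0.073, adjusted p = 8.8e-09) and 5.02-fold lower with 9cRA (-2.33, adjusted p = 4.9e-09) than in the day 6 control. It was 2.49-fold higher in the day 6 control than at day 0 (1.32, adjusted p = 1.1e-07). Against day 0 the differences were -0.78 with ATRA (adjusted p = 4.5e-06) and -1.01 with 9cRA (adjusted p = 5.9e-07). Within slides, the ATRA difference was -2.15 and the rise over culture 1.22.

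The 5 tested ELN probes were all called lower with ATRA (-2.09 to -1.15) and all called higher over culture (0.72 to 1.34). With 9cRA 4 of the 5 were called lower, and the probe at base 688 was not (-0.92, adjusted p = 0.071). That probe was well above background on 0 of 3 arrays with 9cRA and on 3 of 3 in the day 6 control. Its difference with 9cRA is therefore only a bound, at least 1.69-fold, and did not pass the test. Relative to day 0 the probes split. The brightest fell, and the probe at base 1225 differed by 0.12 with ATRA and by 0.48 with 9cRA, neither of which passed. That probe was well above background on 1 of 3 ATRA arrays. The probe at base 2041 was on 2 of 3 with ATRA and 1 of 3 with 9cRA. The probe at base 688 was on 1 of 3 at day 0 and 1 of 3 with ATRA. The sizes of the differences of these 3 probes thus rest partly on signal near background. The position below day 0 rests on 2 of 5 probes with ATRA and 3 of 5 with 9cRA.

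FBN1 encodes fibrillin 1, the backbone of the microfibrils on which elastin is laid, and it changed little. The single probe read -1.06, -1.01 and -0.99 on the ATRA arrays, -0.88, -1.06 and -1.13 on the 9cRA arrays, -0.81, -0.84 and -0.49 on the day 6 control arrays and -0.59, -0.44 and -0.37 on the day 0 arrays. Both retinoid groups lay below the day 6 control without overlap, and the day 6 control overlapped day 0. FBN1 fell slightly relative to the day 6 control, with differences of -0.31 for ATRA (SE 0.10, adjusted p = 0.033) and -0.31 for 9cRA (adjusted p = 0.031). The difference over culture was -0.25 (adjusted p = 0.054), and it passed with quantile normalization (-0.27, adjusted p = 0.034). It also passed with median scaling (-0.32, adjusted p = 0.015), another background correction (-0.27, adjusted p = 0.021) and probes detected on all arrays (adjusted p = 0.044). It passed when some single arrays were left out as well, but not with slide as a block (-0.35, adjusted p = 0.085). With slide as a block the retinoid differences no longer passed, at -0.37 (adjusted p = 0.056) for ATRA and -0.40 (adjusted p = 0.2) for 9cRA, and without day 6 control array 3 they were -0.20 (ATRA, adjusted p = 0.097) and -0.20 (9cRA, adjusted p = 0.091). Against day 0, the FBN1 difference was -0.56 with each retinoid (adjusted p = 0.00062 for ATRA and 0.0006 for 9cRA), and these calls held with slide as a block.

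FN1 encodes fibronectin, whose mesh is known in mouse preadipocyte lines to keep cells spread and to slow fat cell formation. The brightest probe read 7.24, 7.26 and 7.32 on the ATRA arrays, 7.41, 7.23 and 7.19 on the 9cRA arrays, 7.68, 7.67 and 7.66 on the day 6 control arrays and 6.78, 6.85 and 6.90 on the day 0 arrays. Retinoid arrays lay between the day 6 control above and day 0 below, with no overlap. FN1 was 1.32-fold lower with ATRA (-0.40, SE 0.064, adjusted p = 0.00057) and 1.32-fold lower with 9cRA (-0.40, adjusted p = 0.00062) than in the day 6 control, and 1.78-fold higher in the day 6 control than at day 0 (0.83, adjusted p = 1.4e-06). Relative to day 0 it was higher by 0.43 with each retinoid (adjusted p = 0.00015 for both). The last value for 9cRA did not pass with slide as a block (0.37, adjusted p = 0.097). Within slides, the ATRA difference was -0.42 and the rise over culture 0.83.

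The 13 FN1 probes gave differences of unequal size along the transcript. The 10 probes that start between bases 883 and 7356 rose by 1.15 to 1.77 over culture, and their retinoid differences ran from -0.97 to -0.67 with ATRA and from -0.95 to -0.69 with 9cRA. The 3 nearest the 3′ end, from base 7740 on, differed by 0.11 to 0.83 over culture, by -0.40 to 0.25 with ATRA and by -0.40 to 0.30 with 9cRA. Thus 12 of 13 probes were called higher over culture and 11 lower with each retinoid, the exceptions being the probe at base 7961 in each case and with retinoids also that at base 7963. With slide as a block the 9cRA difference at base 3467 no longer passed (-0.91, adjusted p = 0.057), and that at base 7963 did (-0.28, adjusted p = 0.047).

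At base 883, farthest upstream, the FN1 signal was 2.07, 2.32 and 2.51 on the ATRA arrays, 2.54, 2.18 and 2.03 on the 9cRA arrays, 2.93, 3.11 and 3.19 on the day 6 control arrays and 1.27, 1.09 and 1.55 on the day 0 arrays. The groups keep the order seen with the brightest probe, with wider gaps. The probes at bases 7961 and 7963 share 58 of 60 bases, yet on day 6 control array 1 they read 6.07 and 7.21, while the other day 6 control arrays gave 7.42 and 7.22 for the first and 7.32 and 7.28 for the second. The first probe therefore has a wide error (SE 0.28), and that array is the one with many non-uniform spots.

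The reason for the smaller differences near the 3′ end of FN1 was not tested. Over 2977 transcripts with probes at least 1000 bases apart, the median signal of the 3′ probe minus that of the 5′ probe was 2.90 to 3.11 on the ATRA arrays, 2.98 to 3.06 on the 9cRA arrays, 3.01 to 3.09 on the day 6 control arrays and 3.01 to 3.06 on the day 0 arrays. These ranges overlap.

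**Figure D3:**
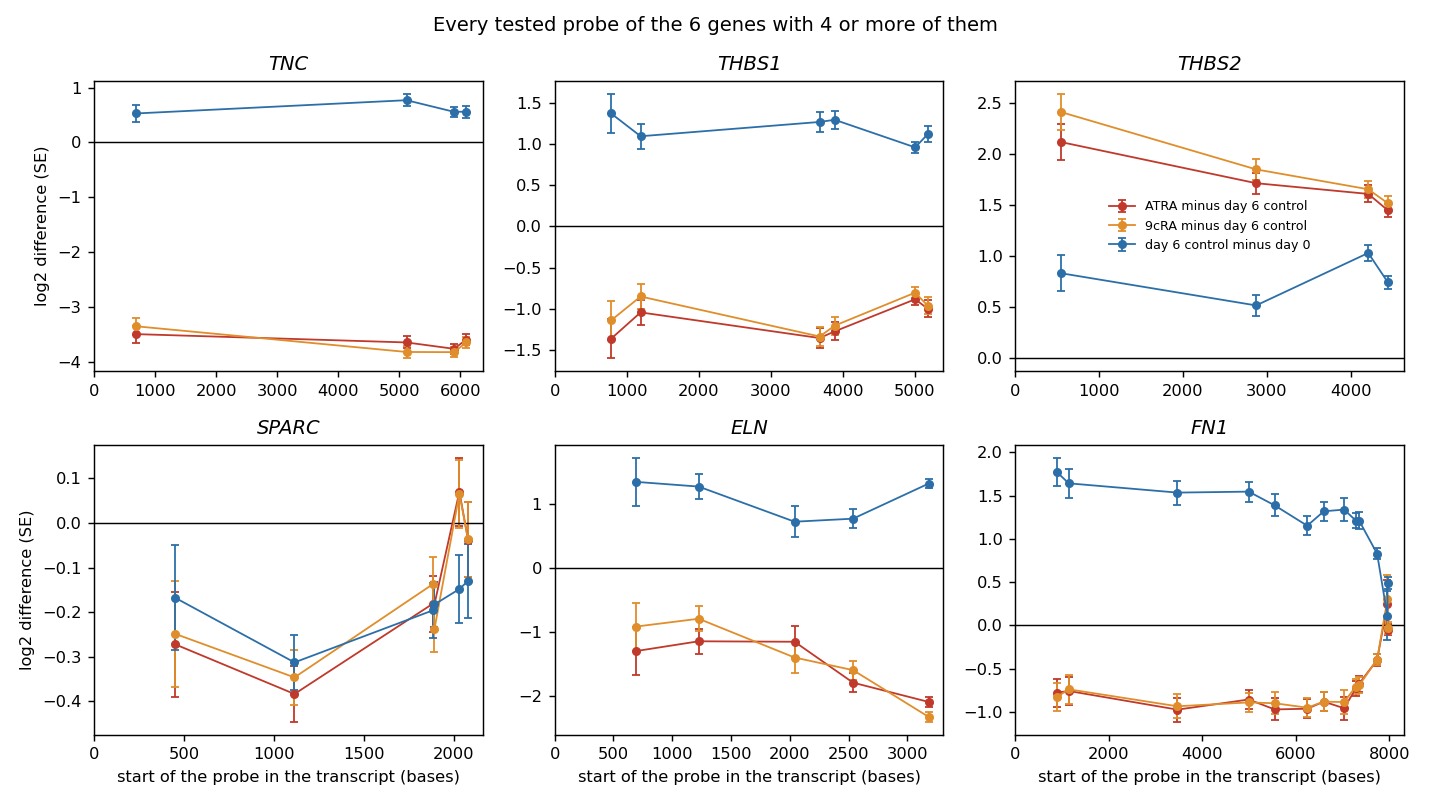
Log2 difference (vertical axis, with SE) of every tested probe of TNC, THBS1, THBS2, SPARC, ELN and FN1 against the base at which the probe starts in the transcript, for ATRA minus day 6 control, 9cRA minus day 6 control and day 6 control minus day 0. TNC is level along its length, while FN1 differences shrink toward 0 after base 7356.

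PRG4 encodes lubricin, a mucin-like proteoglycan best known as the lubricant of joint surfaces. By its 1 tested probe it differed most of the 10 genes between the day 6 control and each of the other groups. The tested probe read -4.37, -4.32 and -4.24 on the ATRA arrays, -3.59, -4.19 and -4.26 on the 9cRA arrays, 0.15, 0.02 and 0.81 on the day 6 control arrays and -6.31, -6.10 and -7.93 on the day 0 arrays. The day 6 control was high, the retinoid groups intermediate and day 0 low, with no overlap between these 3 levels. PRG4 was 24.8-fold lower with ATRA (-4.63, SE 0.42, adjusted p = 8.6e-06) and 20.2-fold lower with 9cRA (-4.34, adjusted p = 1.5e-05) than in the day 6 control. Over culture it rose by 7.11 (95% interval 6.17 to 8.04, adjusted p = 1.7e-07). The probe was well above background on 1 of 3 day 0 arrays, so that difference starts from a level near background. Within slides, the ATRA difference was -4.76 and the rise over culture 6.92. The other PRG4 probe, at base 435, did not pass the detection filter and showed no such rise. Its means were -7.15 with ATRA, -7.76 with 9cRA, -7.15 in the day 6 control and -6.45 at day 0. It was well above background on 1 of 3 day 0 arrays and on 0 of 3 in each other group. Why the 2 probes differ was not tested.

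Relative to day 0, PRG4 was higher by 2.47 with ATRA (adjusted p = 0.00037) and by 2.77 with 9cRA (adjusted p = 0.00017). Neither passed with slide as a block, at 2.16 (adjusted p = 0.072) for ATRA and 2.39 (adjusted p = 0.12) for 9cRA. Among markers of tendon and synovium, SCX and TNMD were well above background on no array, whereas MKX, COMP and CD55 were on all arrays. The mean log2 signal of CD55 was 0.01 with ATRA, 0.07 with 9cRA, -1.43 in the day 6 control and -2.56 at day 0. MKX went the other way, at 0.30 with ATRA, 0.29 with 9cRA, 1.17 in the day 6 control and 1.51 at day 0. The summed signal of that list (7 of 7 on the array) was 2.2 to 2.45 with ATRA, 2.34 to 2.38 with 9cRA, 2.58 to 2.8 in the day 6 control and 2.96 to 3.41 at day 0.

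Against day 0, then, 4 of the 10 genes were called higher and 4 lower with ATRA, where 38.6% of all genes were called higher and 32.6% lower. With 9cRA the counts were again 4 and 4, against 38.8% and 32.2% of all genes. The genes above day 0 were POSTN, THBS2, FN1 and PRG4, and those below were TNC, TNXB, ELN and FBN1. By their brightest probes THBS1 and SPARC passed in neither comparison. With arrays scaled on their median, SPARC passed in both (-0.21 for ATRA, adjusted p = 0.024, and -0.21 for 9cRA, adjusted p = 0.021). These comparisons share the day 0 arrays. No overlap with the day 0 arrays was seen for 78.5% of all genes with ATRA and 78.7% with 9cRA.

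ATRA and 9cRA are stereoisomers given at the same dose and time, and in this 1 pair none of the 10 genes was called different. Over all 17744 genes 0.118% were called in this comparison and 0.151% of probes. By the brightest probes, ATRA minus 9cRA ran from -0.30 to 0.32, and the smallest adjusted p was 0.32. For the 9 genes other than PRG4, every 95% interval lay between -0.25 and 0.58. PRG4 was measured less closely, with a difference of -0.30 and an interval of -1.23 to 0.64. Differences of a size within these intervals remain possible.

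The 2 genes whose ATRA and 9cRA arrays did not overlap were POSTN and ELN, where 16.5% of all genes showed no overlap. POSTN was higher with ATRA than with 9cRA by 0.32 (95% interval 0.06 to 0.58, adjusted p = 0.39), and its 3 probes ran from 0.32 to 0.41. ELN was higher with ATRA by 0.23 (0.07 to 0.40, adjusted p = 0.32), but its 5 probes ran from -0.38 to 0.25. For TNC the difference was 0.05 (-0.19 to 0.29), for TNXB 0.19 (-0.06 to 0.44), for THBS1 -0.04 (-0.25 to 0.18) and for THBS2 -0.07 (-0.22 to 0.08). Of the 44 tested probes 16 were above 0 and 28 below, and none was called.

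Genes that assemble elastic fibres moved in both directions. Of 18 tested genes, 4 were called higher and 10 lower with ATRA (median -0.51), and 4 and 10 with 9cRA (median -0.58), beside medians of 0.05 and 0.06 over all genes. Over culture 9 were called higher and 8 lower (median 0.15, beside 0.0045 over all genes). For these counts and those of the other related lists, the share of all genes called higher was 23.3% with ATRA, 24.2% with 9cRA and 30.9% over culture. The share called lower was 21.9% with ATRA, 21.3% with 9cRA and 31.2% over culture. LOX, the lysyl oxidase that crosslinks elastin and collagen, read 5.36, 5.47 and 5.47 on the ATRA arrays, 5.54, 5.40 and 5.32 on the 9cRA arrays, 5.88, 6.14 and 6.03 on the day 6 control arrays and 4.81, 4.84 and 4.88 on the day 0 arrays. It rose by 1.17 over culture (adjusted p = 4.1e-07) and differed from the day 6 control by -0.58 with ATRA and by -0.60 with 9cRA. Here and in the other related lists, a gene said to rise or fall had an adjusted p under 0.05. LOXL1, a lysyl oxidase needed for elastic fibre upkeep in mice, rose by 1.22 over culture (adjusted p = 2e-08) and gave -0.08 (ATRA, adjusted p = 0.26) and -0.03 (9cRA, adjusted p = 0.67) with retinoids. EFEMP1, a fibulin, rose by 0.98 over culture and fell with retinoids (-1.14 with ATRA and -1.05 with 9cRA). LTBP1 and LTBP2 tether latent TGF-beta or bind microfibrils. Both fell, LTBP1 with differences of -1.32 (ATRA) and -1.23 (9cRA) and LTBP2 with -0.87 (ATRA) and -1.02 (9cRA). FBLN5, a fibulin that links elastin to cells, fell as well (-0.94 with ATRA and -0.77 with 9cRA).

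Other matricellular and adhesive glycoproteins also moved both ways. Of 22 tested, 7 were called higher and 11 lower with ATRA (median -0.32) and 7 and 11 with 9cRA (median -0.27), and 9 were higher and 5 lower over culture (median 0.15). The medians over all genes were 0.05 (ATRA), 0.06 (9cRA) and 0.0045 (culture). SPP1, osteopontin, a secreted ligand of integrins and CD44, read 5.97, 5.92 and 6.04 on the ATRA arrays and 5.88, 6.08 and 6.03 on the 9cRA arrays, against 1.79, 1.84 and 1.71 on the day 6 control arrays. It was 18.3-fold higher with ATRA (4.19, adjusted p = 3.1e-10) and 18.6-fold higher with 9cRA (4.22, adjusted p = 3.5e-10). FNDC1, a protein with fibronectin type III domains, moved the other way. Its signal was -4.52, -4.28 and -4.51 on the ATRA arrays and -4.24, -4.66 and -4.61 on the 9cRA arrays, against -0.46, -0.61 and -0.18 on the day 6 control arrays. The differences were -4.02 with ATRA (adjusted p = 7.7e-09) and -4.09 with 9cRA (adjusted p = 7.5e-09). CCN3, a matricellular protein of the CCN family, fell too (-2.11 with ATRA and -1.99 with 9cRA). Over culture SMOC1, a relative of SPARC, rose by 1.57, while ECM2 fell by 1.62 and THBS3, another thrombospondin, fell by 0.96 (largest adjusted p of these 3, 6.1e-08).

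Of 14 tested receptors of these proteins, 3 were called higher and 7 lower with ATRA (median -0.30), 3 and 8 with 9cRA (median -0.25) and 7 and 5 over culture (median 0.21). Medians over all genes were 0.05 (ATRA), 0.06 (9cRA) and 0.0045 (culture), and 23.3% (ATRA) and 24.2% (9cRA) of all genes were called higher. ITGA9, the integrin chain that binds tenascin-C and osteopontin, fell relative to the day 6 control (-2.46 with ATRA and -2.32 with 9cRA). SDC1, the heparan sulphate proteoglycan syndecan 1, fell (-2.01 with ATRA and -1.91 with 9cRA), whereas ENG, a co-receptor of TGF-beta, rose by 1.14 (ATRA) and 1.09 (9cRA). Over culture CD36, a thrombospondin receptor and fatty acid transporter, rose by 2.01 (adjusted p = 1e-05), SDC4, syndecan 4, rose by 1.39 and ITGB5, an integrin chain, fell by 0.77. With ATRA CD36 fell by 0.73 (adjusted p = 0.015), and with 9cRA it gave -0.21 (adjusted p = 0.43).

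The 12 TGF-beta ligands, receptors and SMADs were divided, with 4 called higher and 4 lower with each retinoid (medians 0.22 for ATRA and 0.20 for 9cRA, beside 0.05 and 0.06 over all genes) and 5 higher and 4 lower over culture (median 0.11). With slide as a block the medians were 0.07 (ATRA), -0.0018 (9cRA) and -0.05 (culture). The receptor gene TGFBR3 fell (-2.07 with ATRA and -1.89 with 9cRA). The ligand gene TGFB3 rose by 1.46 (ATRA) and 1.29 (9cRA), and SMAD3, which carries the signal to the nucleus, rose by 1.46 (ATRA) and 1.38 (9cRA). Over culture SMAD3 fell by 1.26, SMAD2 fell by 0.52 and TGFB2 rose by 0.71. None of the genes of these 4 lists was called between ATRA and 9cRA.

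**Figure D4:**
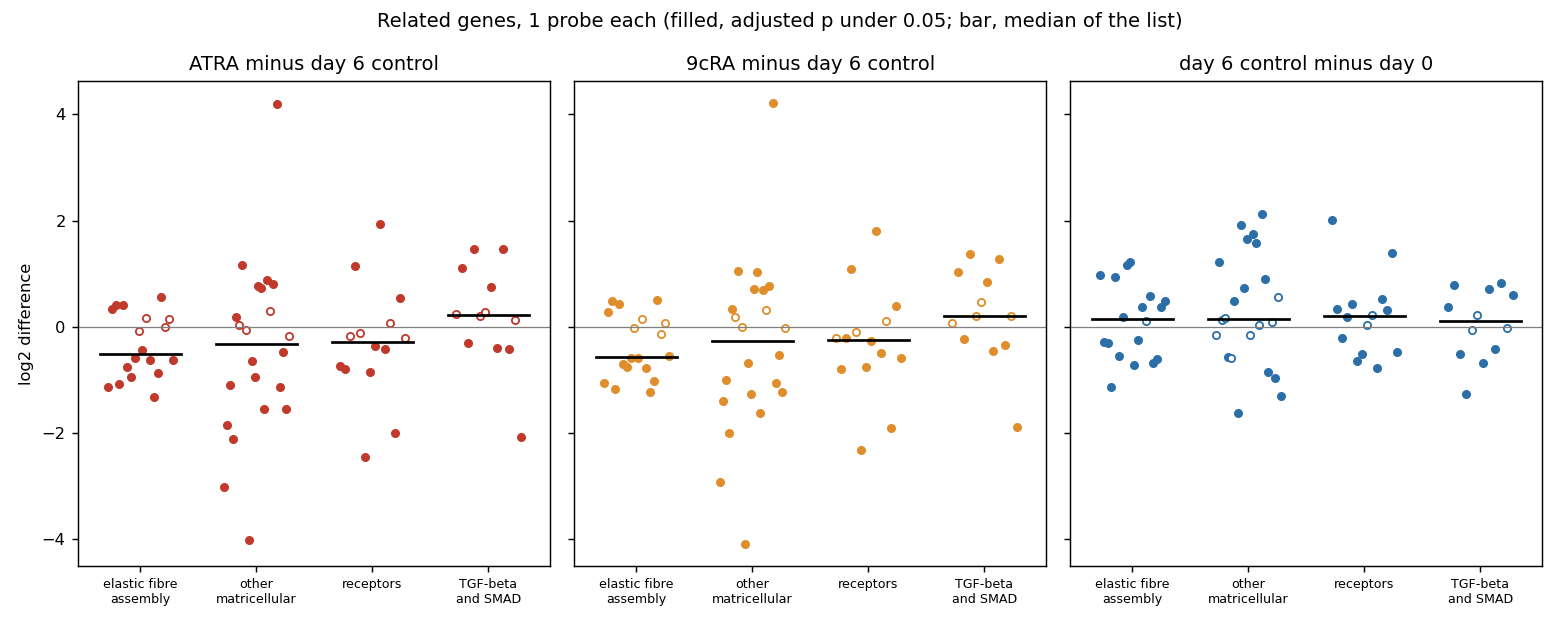
Log2 difference of each tested gene in the 4 related lists (elastic fibre assembly, other matricellular proteins, receptors, TGF-beta and SMADs), for ATRA minus day 6 control, 9cRA minus day 6 control and day 6 control minus day 0. Filled points passed the adjusted p threshold, open points did not, and bars are list medians; SPP1 is the highest point and FNDC1 the lowest in both retinoid panels.

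Likeness of pattern was measured over the 4 group means, each centred on its own average, as the root mean square difference among 10574 genes detected on all arrays. The genes most like TNC were LMCD1 (0.23), the smooth muscle marker TAGLN (0.26) and ASPN (0.30), a small leucine-rich matrix proteoglycan. For TNXB they were PAMR1 (0.26), RTP4 (0.36) and IGFBP6 (0.40), but genes near background in the day 6 control, as TNXB was, were not searched. Those most like ELN were TEC (0.16), the caveola gene CAV1 (0.18) and the tissue factor gene F3 (0.20). THBS1 was matched by ME2, KRT80 and LRRC25, THBS2 by TSHZ1, ERRFI1 and RHBDL2, and POSTN by LCE1B, IFT27 and ARHGAP6, each within 0.09 on the log2 scale. Nearest to PRG4 among the genes searched were HRH1 and P4HA3 (0.83 each) and PTX3 (1.08), but genes not detected at day 0, where PRG4 itself was near background, were not searched. SPARC, FBN1 and FN1 spanned under 1 between their group means and were not matched.

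All 12 fibroblast and preadipocyte markers were well above background on every array, and their summed signal was 818 to 871 with ATRA, 837 to 849.8 with 9cRA, 997 to 1055 in the day 6 control and 855 to 871 at day 0, in units of the array's 75th percentile. Adipocyte markers summed to 2.76 to 2.88 with ATRA, 3.01 to 3.93 with 9cRA, 70.1 to 87.6 in the day 6 control and 4.06 to 4.22 at day 0. FABP4, the fatty acid carrier of fat cells, made up most of the day 6 sum, while ADIPOQ was well above background on no array. Both sums were highest in the day 6 control, as were ELN, THBS1, FN1, TNC and PRG4. The members of each list did not move together. By mean signal, THY1, DCN, LUM and MFAP5 were highest in the day 6 control. PDGFRA, COL3A1, DLK1 and ZNF423 were highest with a retinoid, and PDGFRB, COL1A1, COL1A2 and COL6A1 at day 0. CIDEC read -1.87 at day 0 and -4.71 in the day 6 control. LPL read -2.14 with ATRA, -1.97 with 9cRA and -2.10 in the day 6 control. The part of these markers in the results of those 5 matrix genes was not tested. Endothelial markers summed to 0.462 to 0.546 with ATRA, 0.392 to 0.498 with 9cRA, 0.172 to 0.244 in the day 6 control and 0.384 to 0.394 at day 0. Different genes carried this sum in different groups. CLEC14A had a mean log2 signal of -1.99 at day 0 and was well above background on no array of the other groups. VWF and TEK were highest with a retinoid. PECAM1 was well above background on no array, KDR on no day 0 array, and CDH5 on no more than 1 of 3 arrays in any group. Leukocyte and macrophage markers summed to 4.07 to 4.28 with ATRA, 3.82 to 4.22 with 9cRA, 1.4 to 2.14 in the day 6 control and 1.9 to 2.23 at day 0, and AIF1 was well above background on no array. This list was higher with retinoids than in the day 6 control, as were TNXB, THBS2 and POSTN, and its part in those results was not tested. Skeletal muscle markers summed to 3.37 to 3.62 with ATRA, 3.51 to 3.81 with 9cRA, 4.45 to 5.77 in the day 6 control and 6.11 to 6.55 at day 0. These markers did not move together. The mean log2 signal of ACTA1 was -0.91 with ATRA, -0.93 with 9cRA, 1.47 in the day 6 control and 2.05 at day 0. MYOD1 went the other way, at 1.45 with ATRA, 1.51 with 9cRA, 1.20 in the day 6 control and 1.02 at day 0. MYH3 was well above background on no day 0 array and on all arrays of the other groups.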

How the data were processed

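Cy3-labelled RNA of 4 groups was measured on 12 one-colour bovine arrays of 60-base probes. Spot intensity was deposited by the authors as Feature Extraction 10.7.3.1 output, background-subtracted per the file headers, with no normalization between arrays. The deposited log2 table, with 1 column per group, matched group means centred on each probe's median over 12 arrays (median absolute difference 0.0025 to 0.0028). It served as an alternative. The annotation build is UMD_3.1, per the file headers.

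The intensity was taken to log2 and each array's 75th percentile was subtracted. Control spots and 191 outlier spots were left out, and 0 spots were saturated. Probes were tested where any group had all 3 arrays well above background (31205 of 43653 probes, 17744 genes). Group means of all 12 arrays were fitted with limma 3.58.1 (lmFit, eBayes, two-sided) in R 4.3.3, with Benjamini-Hochberg adjustment over all tested probes. The fit was tested on simulated data. Alternatives were other scalings, background corrections, filters, slide as a block and leaving out arrays.

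All members were named, with, from each related list, the 3 genes of smallest adjusted p in each of 3 comparisons and the 3 genes most like each member. Members and lists were chosen with earlier results of these data known. For a probe dim in a whole group, the bound sets the bright group's mean against, per array, the higher of the lowest well-detected signal and the probe's own. Probes were named through a RefSeq gene table by accession (26707), current symbol (6007) or older symbol (141), and 10798 kept the file's name. The number of arrays limits the precision.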

Additional observations from a re-analysis of the deposited data

How the results depend on the processing

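No paired analysis was possible because the labels give no replicate numbers and 1 sample per group. Of 1626 values recomputed under alternatives, 1561 kept their direction and side of the threshold (for counts, stayed within 1.5 times). TNC, TNXB, POSTN, THBS1, THBS2, ELN, FN1 and PRG4 kept their calls for each retinoid against the day 6 control under every alternative that gives a test (the authors' deposited table has 1 value per group and gives none), except ELN with 9cRA by its dimmest probe, whereas FBN1 lost them under several. With the dimmest tested probe of each gene, SPARC was -0.38 (ATRA) and -0.35 (9cRA) against the day 6 control, opposite in sign to the brightest probe, and ELN was 0.043 (ATRA) and 0.43 (9cRA) against day 0. That ELN probe was well above background on 1 of 3 arrays at day 0, 1 of 3 with ATRA and 0 of 3 with 9cRA. Why the probes differ was not tested. With 1 probe per gene, fewer features were tested, and 11076 were called for day 6 control against day 0, 8194 and 8256 for ATRA and 9cRA against the day 6 control, 21 for ATRA against 9cRA, and 12677 and 12650 for ATRA and 9cRA against day 0. With slide as a fixed block, 6501 probes were called for 9cRA against the day 6 control, where no slide held both groups, 14537 and 11588 for ATRA and 9cRA against day 0, and 4 member genes for 9cRA against day 0 in place of 8. For ATRA against 9cRA, with 47 probes called, the counts were 81 with quantile normalization, 0 without a filter on dim probes, 73 with probes detected on all arrays, 20 with slide as a random block and 1 with only these groups fitted, and 0 to 63 when 1 array was left out. No member was called in any of them. In the authors' deposited table, PRG4 differed from day 0 by 1.79 (ATRA) and 2.08 (9cRA). The cause was not tested.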

Other observations

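A probe annotated to an Ensembl elastin transcript but not named ELN in the files, chosen after its values were seen, moved like the brightest ELN probe. Its difference from the day 6 control was -2.29 with ATRA (adjusted p = 1.2e-07) and -2.29 with 9cRA (adjusted p = 1.4e-07), and it was higher by 1.29 in the day 6 control than at day 0 (adjusted p = 4.8e-06).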
